A study of Bubalus bubalis with 6 samples.

Results

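The table of circular RNAs (circRNAs) from buffalo blood held 36 circRNAs whose host gene was listed as NFKB1 or TAB3, of 57308 circRNAs in all. Members were chosen by the listed host name alone: 19 circRNAs came from NFKB1 and 17 from TAB3. The blood was drawn from Jianghuai buffalo cows of 3 to 5 years, of which 3 formed the non-pregnant group (C-Buffalo) and 3 the pregnant group (P-Buffalo), and every animal gave 1 library. All cows had received 2 injections of a prostaglandin analogue (sodium D-chlorprostol) to bring them into estrus together. P-Buffalo cows were then inseminated, bled on day 25 and found pregnant by ultrasound on day 60, whereas C-Buffalo cows received no insemination, and effects of insemination cannot be told apart from those of pregnancy. After ribosomal RNA depletion and RNase R digestion of linear RNA, the reads assigned to each circRNA were counted.

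A circRNA forms when the end of an exon is joined backwards to the start of an upstream exon or of itself, which closes the RNA into a ring that RNase R does not digest. NFKB1 encodes p105, which is processed to p50, a DNA-binding subunit of the transcription factor NF-kappa-B. TAB3 encodes an adaptor that binds polyubiquitin chains and the kinase TAK1, which in turn activates the IKK complex, so that inhibitors of NF-kappa-B are degraded and the factor enters the nucleus. In blood, this pathway is known for its part in the responses of leukocytes to cytokines and microbial products.

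Library totals over all circRNAs lay between 815851 and 1298753 counts. Levels are given in CPM, the counts scaled to a common library total, and a circRNA without reads could have had up to 2.11 to 6.90 CPM by counting error alone (3 counts, the highest limit in non-pregnant replicate 2). Non-pregnant replicate 2 stood apart. Its scaling factor (TMM, the factor by which edgeR corrects a library total) was 0.467 over circRNAs, against 1.09 to 1.25 in the other libraries. Over host genes, whose factors were computed separately, it was 0.688 against 0.991 to 1.13. The CPM of single circRNAs and of host gene sums are therefore on different scales and do not add up. Results are given with and without this library. Blood is a mixture, and fewer cells of a type cannot be told apart from less RNA per cell. Among host genes that mark blood cells, PTPRC, the pan-leukocyte CD45 gene, ranged from 614 to 2194 CPM in C-Buffalo and from 475 to 1379 CPM in P-Buffalo. The summed CPM overlapped between the groups for neutrophil markers (6 of 7 in the table, CXCR2 absent, 52.5 to 181 against 32.4 to 70.9), T cell markers (4 of 7, 2102 to 4246 against 1488 to 2532), B cell markers (4 of 6, 245 to 569 against 245 to 494) and erythroid markers (7 of 8, HBB absent, 1721 to 3250 against 2162 to 3434). Monocyte markers had 1 of 5 in the table (0 to 8.23 against 0 to 6.13 CPM), and NK cell markers had 0 of 5. The summed platelet markers (4 of 6 in the table, GP1BA and PF4 absent) did not overlap, with 552 to 746 CPM in C-Buffalo and 189 to 379 CPM in P-Buffalo. Of their 2814 reads, 2693 came from CLEC1B, so this sum is in the main that of a single gene. MMRN1 (98 reads) overlapped between the groups, and ITGB3 and ITGA2B had 18 and 5 reads. These are circRNA reads of marker genes, not levels of their mRNAs.

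Both genes were rich in circRNAs. Of 8611 host genes, 7.18% had at least as many circRNAs as NFKB1 and 8.93% at least as many as TAB3, against a median of 3 per host gene. NFKB1 circRNAs collected 2118 reads and TAB3 circRNAs 2019 reads, against a median of 58 reads for a host gene. Of the 36 circRNAs, 27 were listed as exonic and 9 as intronic (ciRNA). The ciRNAs held 10.8% of the NFKB1 reads and 1.98% of the TAB3 reads, against 7.18% over the whole table. Of the 36, 8 (22.2%) were read in every library, against 7.96% of the table, and 19 (52.8%) were read in a single library, against 56.5%.

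**Figure D1:**
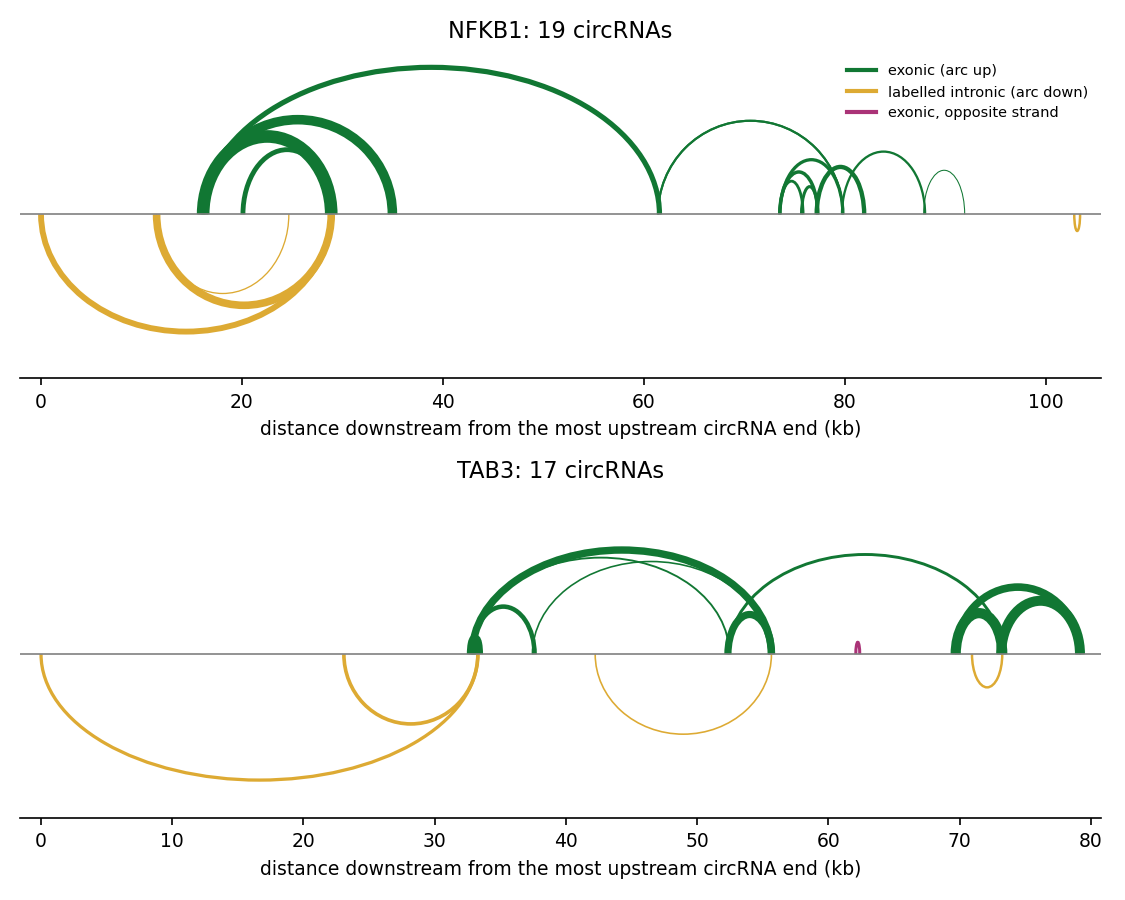
Positions of the 19 NFKB1 circRNAs and the 17 TAB3 circRNAs, as distance in kb in the direction of transcription from the most upstream circRNA end. Each arc joins the ends of 1 circRNA, exonic circRNAs above the line and ciRNAs below it, and a thicker arc has more reads. In NFKB1 the thick arcs share 1 region, whereas in TAB3 they fall in separate regions.

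The NFKB1 circRNAs lay on the minus strand of sequence NC_037551.1, between positions 97746823 and 97850253 of the deposited coordinates. Starts and ends of circRNAs are given by coordinate throughout. On the minus strand a start is therefore the downstream side of a circRNA in transcription, and an end the upstream side. Their spans ran from 581 to 45424 bp with a median of 8790 bp, and the exonic ones were listed with 2 to 5 exons. The reads converged on a pair of positions. The 4 circRNAs that ended at 97834116 together held 1761 reads, which was 83.1% of the NFKB1 reads. The 4 circRNAs that started at 97821366, 2 of them ciRNAs, held 1582 reads, or 74.7%. The leading circRNA, circRNA7316, joined these 2 positions, held 4 exons and lay between listed introns of 32524 bp and 24931 bp.

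The TAB3 circRNAs lay between 29706357 and 29785542 of sequence NC_037569.1, all on the minus strand except circRNA36718. That circRNA spanned 223 bp on the plus strand and was read 11 times in pregnant replicate 1 alone. Spans ran from 223 to 33289 bp with a median of 9471 bp, and the exonic circRNAs were listed with 1 to 6 exons. The reads were more evenly spread than those of NFKB1. The leading circRNA held 26.6% of the TAB3 reads against 62.7% in NFKB1, and the 5 leading circRNAs held 88.6% against 92.9%.

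The ends of the ciRNAs of both genes were set against those of the exonic circRNAs. Of the 9 ciRNAs, 6 started at the same base as an exonic circRNA of the gene, and 0 of 9 ended where an exonic one ended. For these 6 the start also lay within 1 bp of the lower boundary of the listed intron, so the shared base is not independent of the listing. A further count was that 5 of the 9 contained 1 or more exonic circRNAs within their span, although each is listed as a single intronic piece. For the exonic circRNAs, 24 of 27 had both ends within 1 bp of their listed flanking introns, against 98.2% of 45721 in the table. The exceptions were circRNA12172, circRNA36718 and circRNA44044. The start of circRNA12172 lay 26585 bases away from its listed intron, and it carries the same listed introns and exon number as circRNA28313, so its true exon content is not known from the table.

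When all circRNAs of a gene were summed, NFKB1 had fewer reads in P-Buffalo. The counts were 371, 446 and 494 in non-pregnant replicates 1, 2 and 3, and 253, 295 and 259 in pregnant replicates 1, 2 and 3. After TMM scaling these were 382, 696 and 382 CPM against 222, 218 and 281 CPM, or 486 ± 181 against 240 ± 35.6 CPM (SD, n = 3). The groups did not overlap, neither in counts nor in CPM. Across all 4137 host genes tested, 4.47% were likewise lower without overlap and 7.06% higher. The log2 fold change (pregnant over non-pregnant) was -1.02 (SE 0.54), with an adjusted p of 0.901 from edgeR's quasi-likelihood test with Benjamini-Hochberg adjustment. It was -0.66 (SE 0.36) without non-pregnant replicate 2. The threshold, an adjusted p under 0.05 together with a fold of 2 or more in either direction (1 on the log2 scale), was not met. Of all host genes, 49.5% had a negative log2 fold change. The summed platelet markers, nearly all CLEC1B reads, also lay lower in P-Buffalo without overlap. Their part in the NFKB1 result was not tested.

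TAB3 varied more between animals than between groups. Its counts were 455, 623 and 122 in C-Buffalo and 159, 479 and 181 in P-Buffalo. In CPM these were 468, 972 and 94.3 against 139, 354 and 197, or 512 ± 440 against 230 ± 111 (SD, n = 3). The lowest animal of all, non-pregnant replicate 3, and the highest, non-pregnant replicate 2, belonged to the same group, and the groups overlapped. The log2 fold change was -1.15 (SE 0.69), with an adjusted p of 0.901 (edgeR), and it was -0.27 (SE 0.65) without non-pregnant replicate 2. Without non-pregnant replicate 3 it was -1.65 (SE 0.64), with an adjusted p of 0.407 (edgeR).

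**Figure D2:**
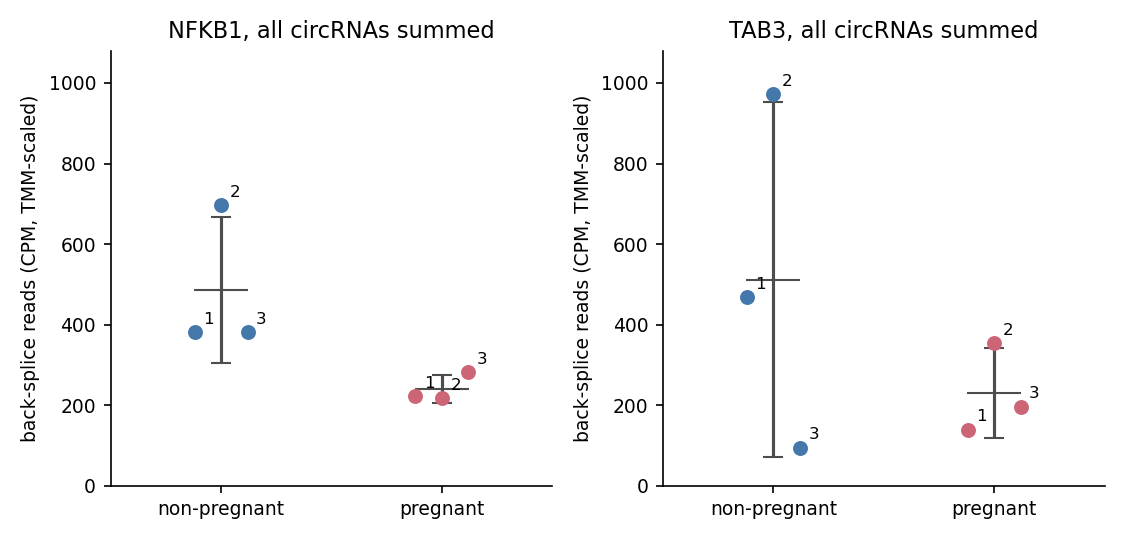
Summed circRNA reads of NFKB1 and TAB3 in each animal, in TMM-scaled CPM on a linear axis. Points are animals with their replicate number, the horizontal line is the group mean and the bars are 1 SD (n = 3). NFKB1 runs from 382 to 696 CPM in C-Buffalo and from 218 to 281 CPM in P-Buffalo, whereas the TAB3 groups overlap.

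No host gene passed the adjusted threshold in edgeR (0% of 4137 tested), while DESeq2 and limma on log2(SRPBM + 1) called 1 each, neither of them NFKB1 nor TAB3. At an unadjusted p under 0.05 with the same fold, 4.52% of host genes were lower and 0.967% higher (187 and 40 genes), and the balance moved to 39 and 45 genes when the library totals implied by the deposited SRPBM signal (spliced reads scaled to mapped reads) replaced the TMM factors. NFKB1 and TAB3 were in neither set.

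The balance between both genes was free of library scaling because they were read in the same library. The log2 ratio of TAB3 to NFKB1 reads was 0.29, 0.48 and -2.02 in C-Buffalo and -0.67, 0.70 and -0.52 in P-Buffalo. The outlying value was that of non-pregnant replicate 3. The mean difference was 0.25 (two-sided exact permutation test, p = 0.8), in a design whose smallest possible p is 0.10. Their profiles over the 6 libraries were also compared: by the root mean square difference of centred log2 CPM over 3927 host genes, TAB3 ranked 1313 in nearness to NFKB1, and NFKB1 ranked 501 in nearness to TAB3, at 0.91. The nearest to NFKB1 were SLK, a Ste20-like kinase gene (0.13), RNF130, a RING finger gene (0.13), and RERE, a transcriptional corepressor gene (0.15). The nearest to TAB3 were LOC102415279 (0.15), CPEB4, an RNA-binding protein gene (0.22), and ZRANB2, a splicing factor gene (0.26). These are descriptions over the same 6 libraries, which share their scaling.

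The number of circRNAs read in an animal was 7, 7 and 9 for NFKB1 in C-Buffalo and 6, 10 and 9 in P-Buffalo (exact permutation test, p = 0.9). For TAB3 it was 7, 6 and 6 against 8, 14 and 6 (exact permutation test, p = 0.4). The high value was pregnant replicate 2. It had 13.6 TAB3 circRNAs when thinned to the smallest library total, and the difference between the groups was then 2.89 against 3 (exact permutation test, p = 0.2). Over both genes, 17 of the 36 circRNAs were read in both groups, 5 in C-Buffalo only and 14 in P-Buffalo only, against 36.3%, 25.7% and 37.9% of the whole table. Of the 36 circRNAs, 0 were read in 2 or more animals of a single group only, against 7.18% of the whole table.

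Enough reads for a test were found for 10 circRNAs, 4 of NFKB1 and 6 of TAB3, which held 3841 of the 4137 reads. The other 26 held 296 reads, at most 44 each. In edgeR's test over 8261 circRNAs, 0 of the 10 passed the adjusted threshold, with adjusted p from 0.983 to 0.999, as did 0% of all circRNAs. DESeq2 and limma also called 0 of the 10, against 39 and 11 circRNAs over the table (limma on log2(SRPBM + 1)). DESeq2 gave no adjusted p for circRNA12172, which therefore could not be called there. At an unadjusted p under 0.05 with the same fold, 2 of the 10 were lower in P-Buffalo (circRNA12172 and circRNA10221) and 0 higher, against 2.46% lower and 1.43% higher of all tested (203 and 118, or 56 and 115 with the SRPBM totals, where 0 of the 10 were at that p). In CPM, 3 of the 10 were lower without overlap (circRNA7316, circRNA12172 and circRNA10221) and 0 higher, against 3.87% and 8.16%. Of the 10 log2 fold changes, 6 were negative, against 48.5% over the table, and their median was -0.72 against 0.05. The highest CPM of 5 of the 10 was in non-pregnant replicate 2. The 10 passed the filter on low counts as a whole and circRNAs of a gene share their source, so these counts describe them and carry no test of their own. The summed platelet markers, nearly all CLEC1B reads, moved the same way as the 3 circRNAs without overlap. Their part in these values was not tested.

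circRNA7316, the main NFKB1 circle, was read 273, 181 and 366 times in C-Buffalo and 151, 195 and 161 times in P-Buffalo. The counts overlapped, through non-pregnant replicate 2, while the CPM did not: 311 ± 90.7 in C-Buffalo and 140 ± 17.6 in P-Buffalo (SD, n = 3). Its log2 fold change was -1.16 (SE 0.70), and without non-pregnant replicate 2 it was -0.92 (SE 0.42). It held 73.6, 40.6 and 74.1% of the NFKB1 reads in C-Buffalo and 59.7, 66.1 and 62.2% in P-Buffalo. The means were 62.8 ± 19.2% and 62.6 ± 3.24% (SD, n = 3; exact permutation test, p = 1), so no difference in its share was detectable with 3 animals in each group. The low C-Buffalo value was that of non-pregnant replicate 2. Without that library the difference was -11.2 points (exact permutation test, p = 0.2). That p is the smallest possible with 2 animals against 3, so this test could not give a lower value.

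circRNA12172 shares its listed end, the upstream side, with circRNA7316, and reaches further downstream, to its listed start at 97815279. It was read 29, 249 and 35 times in C-Buffalo and 16, 25 and 24 times in P-Buffalo. This result was set by a single library. In non-pregnant replicate 2 it made up 55.8% of the NFKB1 reads (95% Clopper-Pearson interval 51.1 to 60.5%), whereas in the other 5 libraries it made up 6.32 to 9.27%. The reads carry no molecular identifiers, so this and all later intervals cover counting error only. Its log2 fold change was -3.51 (SE 1.39, adjusted p = 0.983 in edgeR) with all libraries and -0.55 (SE 0.86) without that library.

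The ciRNAs of NFKB1 did not have fewer reads in P-Buffalo. ciRNA488 shares its listed start with circRNA7316 and reaches further upstream, to 97838749. It was read 36, 7 and 26 times in C-Buffalo and 43, 24 and 19 times in P-Buffalo, with a log2 fold change of 0.04 (SE 0.88). ciRNA2308, from the same start to 97850253, was read 0, 2 and 20 times against 25, 17 and 0 times (log2 fold change 0.75, SE 1.88). In both, the groups overlapped. All NFKB1 ciRNAs together held 7.63 ± 4.50% of the NFKB1 reads in C-Buffalo and 16.2 ± 9.78% in P-Buffalo (SD, n = 3), a difference not tested and with overlapping groups.

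The remaining NFKB1 circRNAs were sparse. circRNA28313, which spans 45423 bp to the shared end at 97834116, was read 0, 0 and 17 times in C-Buffalo and 0, 7 and 20 times in P-Buffalo. circRNA34389 starts 1 bp before it and ends at the same base, and its 12 reads all came from pregnant replicate 1, where circRNA28313 had none. The same was seen for circRNA12171 and circRNA25070, whose starts are 1 bp apart: 5 reads came from non-pregnant replicate 1 for the former and 5 from non-pregnant replicate 3 for the latter. No library read both circRNAs of either pair. Further, circRNA7315 had 36 reads and circRNA7313 had 27, and 12 of the 19, among them 3 of those in the pairs, had under 20 reads and 87 reads in all.

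**Figure D3:**
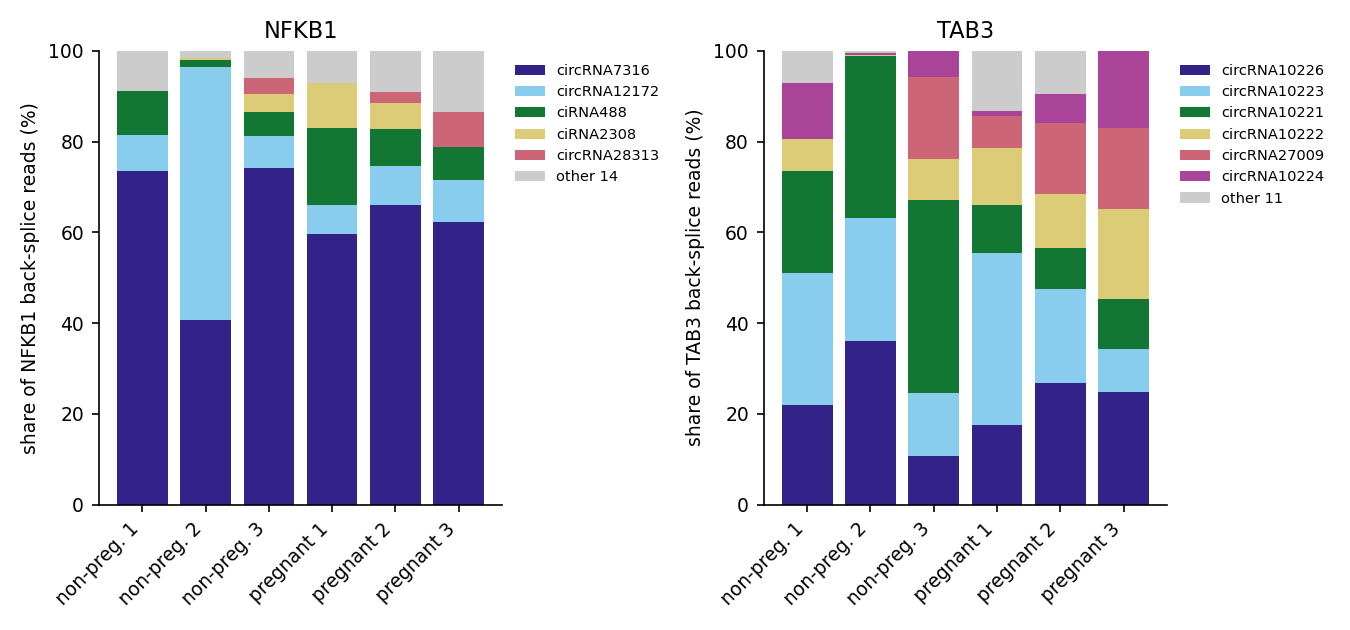
Division of the reads of each gene over its circRNAs in each animal, as stacked shares of that gene's reads in percent. The named circRNAs are the leading ones, and grey holds the others (14 for NFKB1, 11 for TAB3). circRNA12172 takes 55.8% in non-pregnant replicate 2 and at most 9.27% elsewhere, and circRNA10221 takes at least 22.4% in C-Buffalo and at most 11.0% in P-Buffalo.

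The leading TAB3 circRNA, circRNA10226, covers 2 exons within 444 bp, from 29752254 to 29752697. It was read 100, 224 and 13 times in C-Buffalo and 28, 128 and 45 times in P-Buffalo, and the groups overlapped. Its log2 fold change was -1.97 (SE 1.32) with all libraries and 0.04 (SE 1.04) without non-pregnant replicate 2. Its share of the TAB3 reads was 22.9 ± 12.7% against 23.1 ± 4.81% (SD, n = 3; exact permutation test, p = 1). Without non-pregnant replicate 2 the difference in share was 6.75 points (exact permutation test, p = 0.4).

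Among the most downstream TAB3 circRNAs, 3 were made from the same 3 exons, of 102, 84 and 94 bp. These coordinates run opposite to transcription, so the exon of 94 bp is the most upstream. circRNA10223 holds the 94 and 84 bp exons (29712290 to 29715837, 178 bases when spliced), circRNA10221 the 84 and 102 bp exons (29706367 to 29712373, 186 bases) and circRNA10222 all 3 (29706367 to 29715837, 280 bases).

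Of the 6 TAB3 circRNAs tested, circRNA10221 was the one whose groups did not overlap. It was read 102, 222 and 52 times in C-Buffalo and 17, 43 and 20 times in P-Buffalo, so the lowest C-Buffalo count lay above the highest P-Buffalo count. The log2 fold change was -3.32 (SE 1.17), with an adjusted p of 0.983 in edgeR. Without non-pregnant replicate 2 it was -1.64 (SE 0.74) and no longer at an unadjusted p under 0.05. Under every alternative run it stayed negative, from -3.85 to -1.64, with adjusted p from 0.170 to 1.00.

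The other circRNAs of these exons did not separate in the same way. circRNA10223 was read 132, 170 and 17 times in C-Buffalo and 60, 100 and 17 times in P-Buffalo (log2 fold change -1.94, SE 1.23). It was -0.57 without non-pregnant replicate 2. circRNA10222 was read 33, 1 and 11 times in C-Buffalo and 20, 57 and 36 times in P-Buffalo (log2 fold change 1.12, SE 1.09). It was 0.66 without non-pregnant replicate 2 and 2.48 without non-pregnant replicate 1. Both overlapped between the groups in counts, and their fitted values had opposite signs.

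Shares of the reads remove the library scaling, and they were looked at after the counts had been seen, so no test is given. circRNA10221 held 22.4% (95% Clopper-Pearson interval 18.7 to 26.5%), 35.6% (31.9 to 39.5%) and 42.6% (33.7 to 51.9%) of the TAB3 reads in C-Buffalo. In P-Buffalo it held 10.7% (6.35 to 16.6%), 8.98% (6.57 to 11.9%) and 11.0% (6.88 to 16.5%). The means were 33.6 ± 10.3% and 10.2 ± 1.11% (SD, n = 3), and the intervals of the groups did not overlap. The difference of -23.3 percentage points ran from -28.9 to -18.8 points when each library was left out in turn, and was -22.3 points without non-pregnant replicate 2.

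The share of circRNA10222, with all 3 exons, went the other way. Its base includes the reads of circRNA10221, so fewer circRNA10221 reads alone raise this share. Of the reads of the 3 circRNAs it took 12.4%, 0.254% and 13.8% in C-Buffalo and 20.6%, 28.5% and 49.3% in P-Buffalo, or 8.79 ± 7.42% against 32.8 ± 14.8% (SD, n = 3). The highest C-Buffalo share had an interval of 7.07 to 23.3% and the lowest P-Buffalo share one of 13.1 to 30.0%, so these neighbours did not differ beyond counting error. The difference of 24.0 points ran from 15.8 to 30.1 points when each library was left out. As a share of a gene's reads, 1 of the 10 circRNAs was lower without overlap (circRNA10221) and 1 higher (circRNA10222), against 5% lower and 7.99% higher of the 7461 tested circRNAs whose host gene was read in every library. With 10 circRNAs, a count of 1 in each direction lies near that background. Both are shares of the same TAB3 reads and depend on each other, so they are not separate results.

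**Figure D4:**
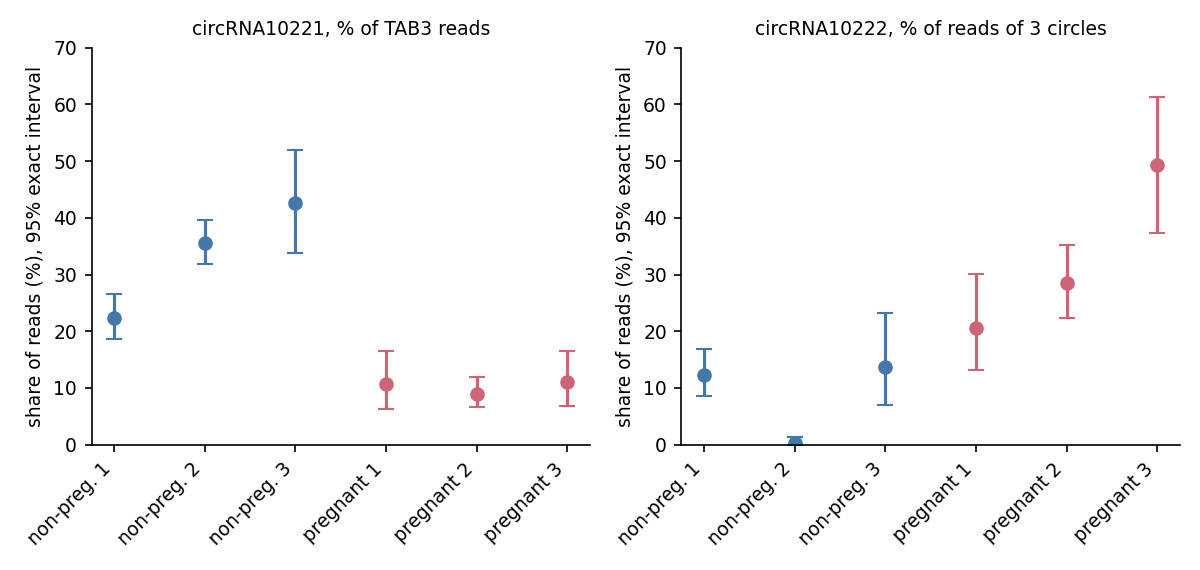
Share of circRNA10221 in the TAB3 reads, and share of circRNA10222 in the reads of the 3 circRNAs built from the same 3 exons, in each animal. Points are percentages and bars are 95% Clopper-Pearson intervals, which cover counting error only. The former is 22.4 to 42.6% in C-Buffalo and 8.98 to 11.0% in P-Buffalo, and the latter 0.254 to 13.8% and 20.6 to 49.3%.

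Upstream in TAB3, circRNA27009 and circRNA10224 share a start at 29729880. circRNA27009 holds 4 exons up to 29752697, where circRNA10226 also ends, and was read 0, 0 and 22 times in C-Buffalo and 11, 75 and 32 times in P-Buffalo. All 3 P-Buffalo animals and 1 C-Buffalo animal had reads, and the groups overlapped. The log2 fold change was 2.44 (SE 1.59). It was lowered by the 22 reads of non-pregnant replicate 3. Without that library both remaining non-pregnant counts were 0, and the fitted value was 8.01 (SE 2.16), which is no bound, and was at an unadjusted p under 0.05 (adjusted p = 0.529 in edgeR). Without non-pregnant replicate 2 it was 1.90 (SE 1.66). circRNA10224, which ends at 29733195, was read 56, 3 and 7 times against 2, 30 and 31 times (log2 fold change -0.29, SE 1.31).

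Of the other 11 TAB3 circRNAs, circRNA10225 had 30 reads and 10 had under 20 reads each, 72 in all. circRNA42940 and circRNA42941 start 10 bp beyond circRNA10221 and circRNA10222 and end at the same bases as these, with 2 reads each, all in pregnant replicate 2.

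The wider pathway gives the setting of these values. Of 91 host genes in the table that belonged to a set of lists on NF-kappa-B signalling, arranged by role, or carried the pathway in their deposited KEGG annotation, NFKB1 and TAB3 ranked 6 and 7 by circRNA reads, a count not scaled to length. Of the 55 tested, 0 passed the adjusted threshold in edgeR. At an unadjusted p under 0.05, 4 were lower in P-Buffalo and 0 higher, against 4.52% and 0.967% of all host genes, and all 4 had their highest CPM in non-pregnant replicate 2. The log2 fold changes were negative for 32 and positive for 23, with a median of -0.10 against 0.01 over all host genes. Without overlap, 1 was lower, which was NFKB1 itself, and 3 were higher, against 4.47% and 7.06% of all host genes.

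Of the genes that encode NF-kappa-B subunits, REL (c-Rel) had 9, 219 and 14 reads in C-Buffalo and 85, 28 and 0 in P-Buffalo, a log2 fold change of -1.91 (SE 1.39) that was 1.66 without non-pregnant replicate 2. RELB had -0.15 (SE 1.19), or -0.59 without that library, and NFKB2 and RELA had no circRNA in the table. The 3 tested genes of inhibitors, which hold the factor in the cytoplasm or modify it in the nucleus, had -0.53 (NFKBIA), 0.67 (NFKBID) and -1.03 (BCL3), and -0.89, 0.38 and -1.50 without it. Of the IKK group, CHUK and IKBKB, the kinase subunits that phosphorylate the inhibitors, had 0.10 (SE 0.91) and 1.06 (SE 1.43), and -0.33 and 0.65 without it. None of these passed the test.

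TAB3 acts with the other members of the TAK1 complex. MAP3K7, the gene of TAK1, had 25, 389 and 45 reads in C-Buffalo and 90, 69 and 30 in P-Buffalo (log2 fold change -2.03, SE 1.01), and 0.85 without non-pregnant replicate 2. TAB2, the closest relative of TAB3 in sequence and role, had 129, 101 and 267 reads against 218, 303 and 197 (log2 fold change 0.34, SE 0.62), and 0.31 without non-pregnant replicate 2. TAB1 had 20 reads and was not tested. The groups overlapped for each.

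The 4 pathway genes at an unadjusted p under 0.05 were LY96, UBE2N, OTULIN and BIRC3. LY96, the TLR4 co-receptor MD-2, had 21, 189 and 0 reads in C-Buffalo and 0, 14 and 0 in P-Buffalo (log2 fold change -4.82, SE 1.79, adjusted p = 0.844 in edgeR). UBE2N, the enzyme that builds the polyubiquitin chains TAB3 binds, had -3.03 (SE 1.24), and OTULIN, a deubiquitinase of linear chains, had -2.21 (SE 0.92), at the same adjusted p. BIRC3, a ubiquitin ligase of TNF receptor signalling, had -2.79 (SE 1.20). Without non-pregnant replicate 2, LY96 had -1.56, UBE2N -1.41, OTULIN 0.52 and BIRC3 -0.09, and 0 of the 4 were at an unadjusted p under 0.05. In the other direction the smallest p belonged to BLNK (2.18, SE 1.23), PLCG1 (2.17, SE 1.57) and SYK (1.55, SE 1.30), which act below the B cell and other immune receptors, and these had 1.65, 1.92 and 1.08 without that library. Among the most read were PLCG2 (16019 reads), CFLAR, a caspase-8 regulator (5876), BTRC, the ligase subunit that recognises phosphorylated inhibitors and p105 (3694), and PRKCB (2428), with log2 fold changes from -0.26 to 0.00.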

How the data were processed

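Blood of 3 non-pregnant and 3 pregnant buffaloes was sequenced, with the groups as the sample labels give them, each replicate a separate animal and no batch named. The authors deposited raw counts for every circRNA in every library. The authors also deposited a signal, SRPBM (spliced reads scaled to mapped reads), equal to the count divided by a constant of 4.36 to 5.81 that differs between libraries. According to the methods, reads were mapped to ASM312139v1, a buffalo assembly, using Bowtie2 with Tophat2 and Tophat-fusion, and circRNAs were called by CIRI and CIRCExplorer. Different software (HISAT2, fastp, StringTie, HOMER, edgeR, ChIPseeker) and a human build, GRCh38.p10, appear in the submitters' processing notes. Which set produced the deposited values is not given in the sources used. Coordinates are as deposited. Of the transcripts that the table names for these circRNAs, 5 of 7 carried the same gene symbol in RefSeq's gene table of the assembly NDDB_SH_1, which was used for names only. Transcripts without a match there were named for 13 of the 19 NFKB1 circRNAs and 2 of the 17 TAB3 circRNAs.

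edgeR 4.0.16 in R 4.3.3 (TMM factors, quasi-likelihood test, filterByExpr as the filter on low counts, Benjamini-Hochberg adjustment) was fitted to the counts of all circRNAs, leaving 8261, and to counts summed per host gene, leaving 4137. The 2353 intergenic circRNAs have no host and were left out of host sums. CPM are counts scaled by the TMM-corrected library total, as edgeR computes them. The SE given with an edgeR log2 fold change is its absolute value divided by the square root of the test's F statistic. It is therefore derived from the test and is not a separate measure of precision. Shares, numbers of circRNAs and ratios were compared with two-sided exact permutation tests. The thresholds are those of the paper, whose t-test does not suit raw counts. Likeness of profiles was computed over host genes with a mean of at least 10 CPM. Other values and plots were made in Python 3.11.15 (scipy 1.17.1, pandas 2.3.3, numpy 2.4.6, matplotlib 3.10.9). The edgeR fits were tested on simulated counts with a dispersion fixed in advance, not estimated from these data.

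The genes, lists and tests were chosen with earlier results of these data known. Values per animal are given for the 5 most read circRNAs of each gene, those at an unadjusted p under 0.05, and pairs with ends within 1 bp. From the pathway lists, the 3 genes with the smallest p in each direction and the 5 with the most reads are named, and genes named by role (such as REL, TAB2 and MAP3K7) were added after their values were seen. A result that this rule names is withheld and not reported here. For each of both genes the 3 nearest profiles are named. Results were recomputed with DESeq2 1.42.0, with limma 3.58.1 on log2(SRPBM + 0.1) and log2(SRPBM + 1), with RLE factors or with the totals that SRPBM implies, without a filter or with a mean count of at least 20, with circRNAs merged or libraries thinned to the smallest total, with a block on the replicate number, and with each library left out in turn.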

Additional observations from a re-analysis of the deposited data

How the results depend on the processing

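Summed NFKB1 and TAB3 reads kept a negative log2 fold change in all 14 alternatives of each, from -1.34 to -0.66 and from -1.65 to -0.27, with no adjusted p under 0.407. circRNAs of both genes at an unadjusted p numbered 2, against 0 with library totals implied by SRPBM and with limma (either pseudocount), 1 with a mean count of at least 20, and 0 to 3 when a library was left out (0 without non-pregnant replicate 2 or without any 1 pregnant library). The circRNAs were not the same ones in DESeq2 (circRNA10221 and circRNA7316). DESeq2 gave circRNA12172 a log2 fold change of -3.91 (SE 1.39) but no adjusted p, so its absence there is not a failed test.

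Over the table, circRNA calls rose from 0 to 39 (DESeq2), 11 (limma on log2(SRPBM + 1)) and 600 (no filter). At an unadjusted p they went from 321 to 579 (DESeq2), 171 (library totals implied by SRPBM) and 2121 (no filter), and to 389 to 937 when a library was left out. Host gene calls went from 0 to 1 (DESeq2), 1 (limma on log2(SRPBM + 1)) and 86 (no filter), and to 0 to 2 when a library was left out. At an unadjusted p they went from 227 to 84 (library totals implied by SRPBM), 115 and 137 (limma on log2(SRPBM + 0.1) and + 1) and 542 (no filter), and to 150 to 500 when a library was left out. The split of higher against lower also moved, for host genes from 40 and 187 to 45 and 39 with the SRPBM totals and for circRNAs from 118 and 203 to 115 and 56 (limma: 87 and 28 or 107 and 30 host genes, 221 and 81 or 265 and 96 circRNAs, with 0.1 or 1). The SRPBM totals shifted the median log2 fold change of all host genes from 0.01 to 0.16, where NFKB1 was -0.72 and TAB3 -0.55. Limma shifted it to 0.44 (log2(SRPBM + 0.1)) and 0.32 (log2(SRPBM + 1)). The cause was not tested.

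Several values changed sign, among them that of circRNA10226, which was -1.97 in the main fit and so not near 0. The log2 fold change of ciRNA488 was -0.0439 with DESeq2, -0.0401 with RLE factors, -0.0207 with no filter and -0.37 to 0.42 when a library was left out. Leaving out a library gave -0.10 to 2.30 for ciRNA2308, -2.66 to 0.0373 for circRNA10226 and -0.90 to 1.56 for circRNA10224, which was 0.19 and 0.13 with limma (0.1 and 1). With at least 5 reads in a library, the difference in the circRNA7316 share was 0.0122 points against -0.103. Leaving out a library moved it from -11.2 to 5.57 points, that of circRNA10226 from -5.9 to 6.75 points, the difference in the number of NFKB1 circRNAs from -0.167 to 1.83 and that of the log2 ratio of TAB3 to NFKB1 from -0.55 to 0.70.

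Same-numbered animals did not deviate together (correlations of -0.15, -0.07 and -0.02), so the replicate number pairs nothing known. With it as a block, circRNA calls at an unadjusted p numbered 148, host gene calls 1 and 99 at an unadjusted p, and 0 circRNAs of both genes were at an unadjusted p. NFKB1 was -0.96, TAB3 -0.77, circRNA10224 0.46 and circRNA27009 4.05 against 2.44. Limma on log2(SRPBM + 0.1) gave 4.08 for circRNA27009.

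With 3 animals in each group, no permutation test could go below 0.10. A single library, non-pregnant replicate 2, set several values, and 26 of 36 circRNAs were too sparse for a test.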
